A study of Mus musculus with 9 samples.

Results

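The genes examined here are those of the mitotic spindle, the kinetochore and the cyclins, with the kinases and inhibitors that act on them. They were chosen by symbol, with earlier results of these data known, and no measured value entered the rule. A row of the deposited table was a member when it was protein-coding in GENCODE M21 and its symbol began like that of a kinesin, CENP, Aurora, BUB, polo-like, NEK, SKA, NDC80, cyclin A, B, D or E, CDK, CDKN, CDC20, CDC25, APC, MAD1 or MAD2, TACC, condensin or SMC gene, or one of a few further mitotic genes. This gave 69 members of the 5301 genes listed. The annotation holds 180 genes that fit the same rule, and the remaining 111 were not analysed here. By role, the members were 4 cyclins, 1 CDC25 phosphatase, 10 CDKs and their regulators, 4 genes with a Cdkn symbol, 9 genes of the spindle checkpoint and the anaphase-promoting complex, 14 of the kinetochore and centromere, 7 mitotic kinases and passenger-complex genes, 7 mitotic kinesins, 5 other kinesins, 7 condensin and SMC genes and 1 spindle assembly gene.

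Cyclins bind and activate cyclin-dependent kinases (CDKs), and the cell passes from one phase to the next as one cyclin replaces another. Cyclin E acts at the start of DNA synthesis, cyclin A through S and G2 phase, and cyclin B at entry into mitosis. In mitosis the kinetochores join chromosomes to the spindle, the checkpoint holds the anaphase-promoting complex back until all are attached, and kinesins move and shape the spindle. Most transcripts of mitotic proteins rise in G2 and M phase and are low in G1. A known route for this runs through the DREAM and MuvB complexes, which meet their promoters at short elements called CHR (cell cycle genes homology region), and the p53 target p21 (Cdkn1a) is known to strengthen their repression.

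6DT1 is a mouse mammary tumor line from an MMTV-Myc tumor. Cells were transduced with lentivirus carrying a scramble hairpin (shControl) or 1 of 2 hairpins against Resf1 (shH4 and shH6), and 3 libraries were made per group. All 3 groups were grown in DMEM with 10% FBS and 10 ug/ml puromycin, which selects transduced cells, and total RNA was sequenced. The libraries of a group came from separate dishes of 1 transduced line, so hairpin and line cannot be told apart and p-values measure only the spread between dishes. The 2 hairpins are printed below because every comparison rests on them. Each is given 5′ to 3′ with its seed (bases 2 to 8) in capitals. The target of H4 lies at chr6:149327436-149327456 in the coding sequence of exon 3 of Resf1, and that of H6 at chr6:149335414-149335434 in the 3′ UTR, exon 5 (GRCm38, plus strand).
H4: tTTCGATTtgtaacataggtc
H6: aAACAACCaagttacctcagg
Among the listed genes, the full reverse complement of each hairpin was found in transcripts of Resf1 and of no other gene. Resf1 was at 1585 ± 29.3 (shControl), 982 ± 31.7 (shH4) and 1121 ± 8.88 (shH6) (normalized counts, mean ± SD, n = 3), lower in all 6 knockdown (KD) libraries than in the shControl libraries.

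Values were normalized counts, and a change is given as a log2 fold change of normalized count + 1, with the limma p-value adjusted over all 5301 genes. A gene was called at an adjusted p under 0.05. The table had been selected. In each of its genes both hairpins shared a direction, and 100% passed 0.05 for the mean of both against shControl, as did all 69 members, so a call against shControl is common in it and the 2 comparisons with shControl also share their control libraries. The estimated reads in listed genes ran from 10.5 to 19.9 M per library. Of the markers of mammary epithelium, Krt8 and Krt18 were listed and abundant, and the other 7 of the 9 were not analysed here. The fibroblast marker Pdgfra, 1 of 6, had 69.7 to 108 (shControl), 119 to 162 (shH4) and 128 to 157 (shH6) normalized counts, and 0 of the 6 leukocyte and 0 of the 4 basal markers were listed.

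Most members were modestly higher after Resf1 KD. In shH4, 65 of the 69 members were called, 94.2% of them, against 95.7% of all listed genes, which is about the share of the whole table. The directions were less even than in the table. There were 53 members that rose (76.8%, against 49.2% of all listed genes) and 12 that fell (17.4%, against 46.5%). In shH6, 67 were called (97.1%, against 96.1% of all listed genes), of which 56 rose (81.2%, against 49.1%) and 11 fell (15.9%, against 46.9%). The median log2 fold change of the members was 0.16 in shH4 and 0.17 in shH6, or 1.12-fold and 1.13-fold, where the median of all listed genes was 0.096 and 0.088. With upper-quartile scaling the medians of the members were 0.10 and 0.12, and 57 members were above 0 and 12 below. The members rose in both hairpins in 52 cases (75.4%, against 47.2% of all listed genes) and fell in both in 11 (15.9%, against 44.6%).

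The shift was seen in every library. Relative to the mean of the shControl libraries, the median of the members was 0.19, 0.13 and 0.16 in the 3 shH4 libraries and 0.18, 0.20 and 0.16 in the 3 shH6 libraries. The median of all listed genes was also above 0, at 0.074, 0.069 and 0.051 (shH4) and 0.072, 0.056 and 0.039 (shH6). For 53 members (76.8%, against 43.5% of all listed genes) all 6 KD libraries were above all 3 shControl libraries, and for 12 (17.4%, against 42.8%) all 6 were below, so 65 members did not overlap (94.2%, against 86.4% of all listed genes). The groups overlapped for Cenpj, Ska2, Incenp and Tacc2. In a bulk library, a larger share of cells in one phase and more transcript in each cell cannot be told apart.

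**Figure D1:**
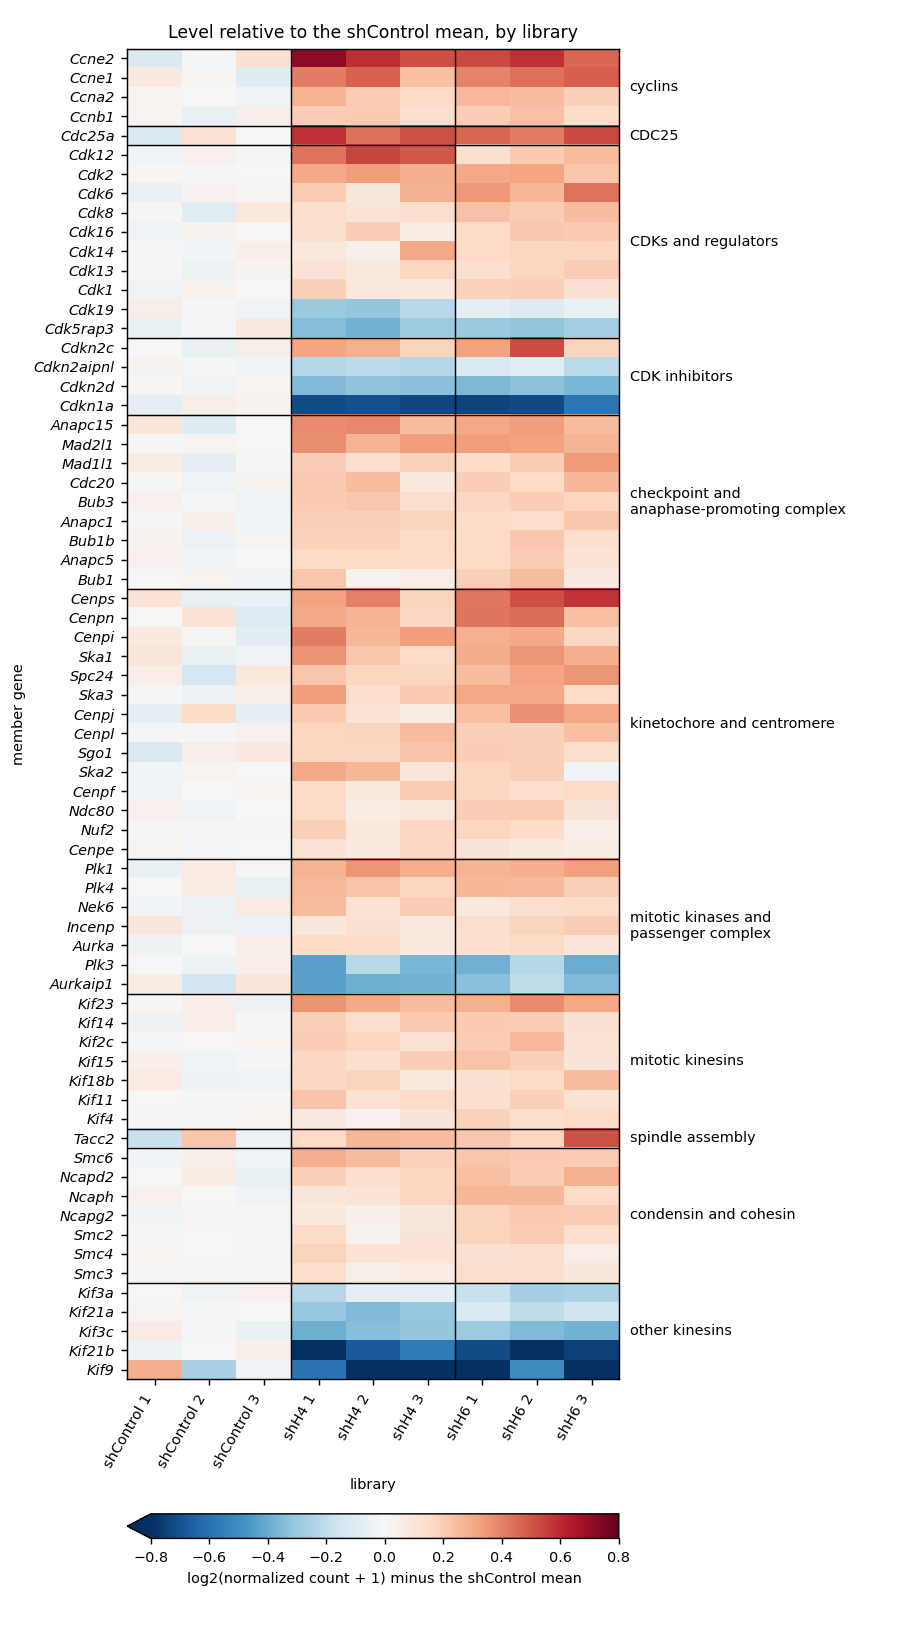
Level of each of the 69 members (rows, grouped by role) in each of the 9 libraries (columns), as log2(normalized count + 1) minus the shControl mean. Most rows are red in all 6 KD libraries, whereas the 5 other kinesins and 3 of the 4 Cdkn genes are blue. The scale ends at −0.8, so Kif9 and Kif21b lie beyond it in some libraries.

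The changes of the members were mostly smaller than those of the table. In shH4, 69.6% of the members changed by less than 1.2-fold, against 49.2% of all listed genes, and in shH6 65.2% did, against 48.0%. Only 4 members in shH4 (5.80%, against 12.53% of all listed genes) and 3 in shH6 (4.35%, against 13.1%) changed by 1.5-fold or more. At least 1.2-fold in both hairpins, 9 members were higher (Ccne1, Ccne2, Cdc25a, Cdk2, Plk1, Kif23, Mad2l1, Anapc15 and Cenps) and 8 were lower (Cdkn1a, Cdkn2d, Cdk5rap3, Plk3, Aurkaip1, Kif21b, Kif3c and Kif9).

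**Figure D2:**
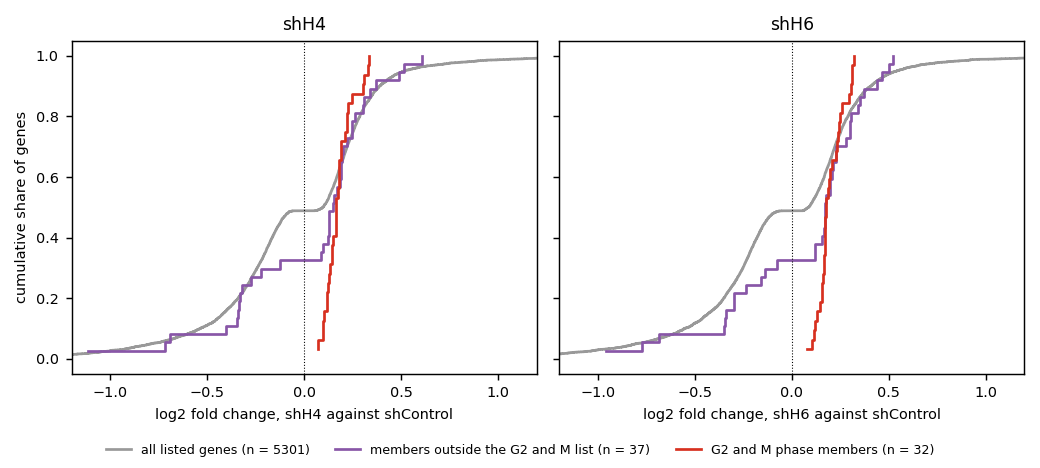
Cumulative share of genes (y axis) by log2 fold change against shControl (x axis) in shH4 (left) and shH6 (right), for all 5301 listed genes (grey), the 32 members known to peak in G2 and M phase (red) and the other 37 members (purple). The grey curve is flat around 0, where the selection of the table left few genes, and the red curve lies wholly above 0. A few genes lie beyond the x axis.

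All 4 listed cyclins of the A, B and E classes rose in both hairpins, as did 47.2% of all listed genes, and of these 4 the E cyclins changed most. Other cyclins, which the rule did not take in, moved in both directions. Among them Ccnf, a ubiquitin ligase subunit, rose by 0.41 and 0.40 (limma adjusted p = 2.04e-07 and 2.66e-07 in shH4 and shH6), and the p53 target Ccng1 fell, with −0.43 and −0.61 (2.96e-07 and 6.07e-09). Ccne2 (ENSMUSG00000028212), which encodes cyclin E2, a partner of CDK2 at the start of S phase, was at 821, 884 and 967 normalized counts in the shControl libraries, 1459, 1338 and 1270.1 in shH4 and 1284, 1332 and 1221 in shH6. The KD libraries did not overlap with the controls, and the log2 fold change was 0.61 in shH4 (SE 0.062, limma adjusted p = 5.12e-07) and 0.52 in shH6 (SE 0.062, limma adjusted p = 2.19e-06). Ccne1 (ENSMUSG00000002068), its close relative, was at 628, 602 and 556 (shControl), 788, 824 and 702 (shH4) and 782, 807 and 831 (shH6). All 6 KD libraries were above the shControl libraries, with a log2 fold change of 0.37 in shH4 (SE 0.065, limma adjusted p = 9.64e-05) and 0.44 in shH6 (SE 0.065, limma adjusted p = 2.00e-05). Ccna2 (ENSMUSG00000027715), the cyclin of S and G2 phase, was at 4494, 4428 and 4329.9 (shControl), 5354, 5090.1 and 4903 (shH4) and 5296, 5238 and 5038 (shH6), and Ccnb1 (ENSMUSG00000041431), the cyclin of mitotic entry, at 3951, 3733 and 3997 (shControl), 4462, 4491 and 4275 (shH4) and 4470.1, 4587 and 4309.8 (shH6). Neither overlapped between KD and control, and their log2 fold changes were smaller, at 0.21 and 0.23 for Ccna2 (limma adjusted p = 0.000119 and 4.71e-05 in shH4 and shH6) and 0.18 and 0.19 for Ccnb1 (limma adjusted p = 0.000504 and 0.000250). A pseudogene of cyclin B1, Ccnb1-ps, was also listed, and how reads were shared between it and Ccnb1 is not known. The D cyclins were not analysed here.

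Cdc25a (ENSMUSG00000032477), the phosphatase that removes inhibitory phosphates from CDK2 and CDK1, rose with them. It was at 694, 814 and 755 normalized counts in the shControl libraries, 1129, 1024 and 1074 in shH4 and 1037, 999.96 and 1087 in shH6, so the lowest KD library was well above the highest control. The log2 fold change was 0.51 in shH4 (SE 0.060, limma adjusted p = 2.11e-06) and 0.47 in shH6 (SE 0.060, limma adjusted p = 5.29e-06). Among members, only Ccne2 rose by more in shH4, whereas in shH6 Ccne2 and Cenps did.

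**Figure D3:**
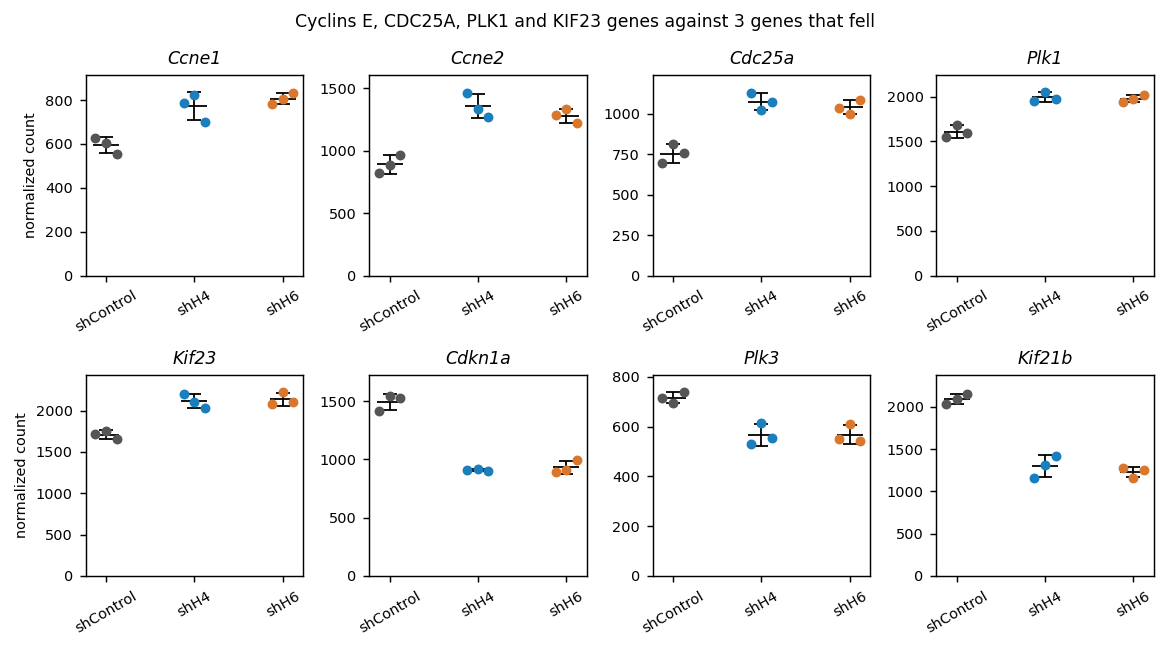
Normalized count (y axis, from 0) of 5 members that rose and 3 that fell in each library (points), with the mean and SD of the 3 libraries (lines) in shControl, shH4 and shH6. In each panel the 6 KD points lie on one side of the 3 shControl points, and the hairpins overlap.

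Of the 10 CDKs and regulators, 8 rose in both hairpins (80%, against 47.2% of all listed genes). Cdk2 (ENSMUSG00000025358), the kinase bound by cyclins E and A, was at 1507, 1474 and 1489.8 normalized counts in the shControl libraries, 1838, 1878 and 1826 in shH4 and 1837, 1855 and 1739.6 in shH6. It did not overlap with the controls and had log2 fold changes of 0.31 and 0.28 (limma adjusted p = 5.31e-06 and 1.33e-05 in shH4 and shH6). Cdk1 (ENSMUSG00000019942), the kinase that drives mitosis, rose less, by 0.12 and 0.16 (limma adjusted p = 0.00790 and 0.000942), from 4334 ± 86.2 to 4709 ± 208 and 4854 ± 129. Its call in shH4 depended on shH4 replicate 1, without which the change was no longer called (0.08, limma adjusted p = 0.0526). The rest of the rising CDKs were Cdk6, a partner of the D cyclins, Cdk14 and Cdk16, and Cdk8, Cdk12 and Cdk13, which act on RNA polymerase II and its Mediator complex and not on the spindle.

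Cdk12 rose most of the CDKs in shH4. Cdk12 (ENSMUSG00000003119) was at 1878, 1951 and 1882 normalized counts in the shControl libraries, 2571, 2765 and 2682 in shH4 and 2085, 2199 and 2265 in shH6, with a log2 fold change of 0.49 in shH4 (SE 0.042, limma adjusted p = 7.66e-08) and 0.20 in shH6 (SE 0.042, limma adjusted p = 0.000499). The 3 groups were apart from each other, with shH6 in between. The 2 members of this group that were lower were Cdk19, the second Mediator kinase, and Cdk5rap3, which is named for binding a CDK5 regulator and is known from protein modification by UFM1. Cdk19 (ENSMUSG00000038481) was at 2707, 2583 and 2561 (shControl), 2131, 2114 and 2239.6 (shH4) and 2492, 2435 and 2516 (shH6). It fell in shH4 and was not called in shH6, at −0.28 and −0.08 on the log2 scale (limma adjusted p = 1.25e-05 and 0.0659). Its 3 shH6 libraries were nevertheless below the controls, and it was called in shH6 with upper-quartile scaling (−0.13, limma adjusted p = 0.00652) and with library weights (−0.07, limma adjusted p = 0.0456). Cdk5rap3 (ENSMUSG00000018669) fell in both, with log2 fold changes of −0.33 and −0.30 (limma adjusted p = 1.45e-05 and 4.24e-05).

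The genes with a Cdkn symbol moved mostly downward, with 3 of the 4 called lower in both hairpins, as were 44.6% of all listed genes. Cdkn1a (ENSMUSG00000023067), which encodes p21, the inhibitor of CDK2 and CDK1 that p53 induces, was at 1416, 1543 and 1525 normalized counts in the shControl libraries, 908, 917 and 899 in shH4 and 892, 906 and 998 in shH6. The highest KD library was far below the lowest control, and the log2 fold change was −0.72 in shH4 (SE 0.052, limma adjusted p = 1.24e-08) and −0.68 in shH6 (SE 0.052, limma adjusted p = 2.09e-08). It fell by 39.3% in shH4 and fell by 37.7% in shH6. Cdkn2d (ENSMUSG00000096472), which encodes p19, an inhibitor of CDK4 and CDK6, was at 1198, 1168 and 1212 (shControl), 932, 953 and 945 (shH4) and 931, 949 and 927 (shH6). It had log2 fold changes of −0.34 and −0.35 (limma adjusted p = 5.71e-06 and 3.73e-06 in shH4 and shH6), and no KD library reached the controls. Cdkn2c (ENSMUSG00000028551), which encodes p18 of the same family, moved the other way, from 465, 447 and 479.6 to 576, 566 and 525 (shH4) and 581, 667 and 525 (shH6), by 0.26 and 0.34 (limma adjusted p = 0.00504 and 0.000722). Inhibitors of one family thus moved in both directions. Cdkn2aipnl (ENSMUSG00000020392), which is named for its likeness to a partner of the ARF protein and is not itself a CDK inhibitor, fell in both, with −0.22 and −0.14 (limma adjusted p = 0.000148 and 0.00470).

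Of the 7 mitotic kinases and passenger-complex genes, 5 rose in both hairpins (71.4%, against 47.2% of all listed genes) and 2 fell in both (28.6%, against 44.6%). Plk1 (ENSMUSG00000030867), the polo-like kinase of spindle formation and mitotic exit, was at 1551, 1687 and 1594 normalized counts in the shControl libraries, 1953, 2056 and 1971 in shH4 and 1942, 1970.4 and 2021 in shH6. All KD libraries were above the controls, and the log2 fold change was 0.31 in shH4 (SE 0.042, limma adjusted p = 9.91e-06) and 0.30 in shH6 (SE 0.042, limma adjusted p = 1.31e-05). Plk4, which starts centriole duplication, rose by 0.22 and 0.24 (limma adjusted p = 0.000260 and 0.000123), Nek6 by 0.19 and 0.12 (0.00159 and 0.0206), Aurka, the spindle-pole kinase, by 0.13 and 0.13 (0.00537 and 0.00513) and Incenp, the scaffold of the passenger complex, by 0.09 and 0.17 (0.0446 and 0.00171). Plk1 thus led this group among the genes that rose. The libraries of Incenp overlapped with the controls, with shControl replicate 1 at 2140.1 and the lowest shH4 library at 2106.

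The 2 that fell share a name with mitotic kinases but are known for other roles. Plk3 (ENSMUSG00000028680), a polo-like kinase known from stress responses and as a p53 target, was at 715, 695 and 738 normalized counts in the shControl libraries, 529, 614 and 556 in shH4 and 548, 612 and 542 in shH6. It did not overlap with the controls and had a log2 fold change of −0.34 in shH4 (SE 0.066, limma adjusted p = 0.000261) and −0.34 in shH6 (SE 0.066, limma adjusted p = 0.000267). It lies 25676 bases from Kif2c on chromosome 4 (GRCm38), and Kif2c rose. Aurkaip1 (ENSMUSG00000065990), named for binding Aurora A and known as a protein of the small mitochondrial ribosomal subunit, was at 1881 ± 172 (shControl), 1419 ± 28.9 (shH4) and 1529.8 ± 89.6 (shH6) and fell in both, with log2 fold changes of −0.40 and −0.30 (limma adjusted p = 1.84e-05 and 0.000277).

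All 9 genes of the spindle checkpoint and the anaphase-promoting complex were higher, 8 of them called in shH4 (88.9%, against 95.7% of all listed genes) and 9 in shH6 (100%, against 96.1%). Mad2l1 (ENSMUSG00000029910), which encodes MAD2, the checkpoint protein that holds CDC20, was at 2543, 2614 and 2565 normalized counts in the shControl libraries, 3335, 3108 and 3246 in shH4 and 3252, 3220.2 and 3101 in shH6. All KD libraries were above the controls, and the log2 fold change was 0.33 in shH4 (SE 0.037, limma adjusted p = 1.56e-06) and 0.31 in shH6 (SE 0.037, limma adjusted p = 2.59e-06). Anapc15 (ENSMUSG00000030649), the subunit that helps release the checkpoint complex, was at 399.9, 349.9 and 374 (shControl), 487, 489 and 446 (shH4) and 464, 473 and 446 (shH6), with log2 fold changes of 0.34 and 0.30 (limma adjusted p = 0.000335 and 0.000854). Mad1l1, the partner of MAD2 at the kinetochore, rose by 0.17 and 0.23 (0.0104 and 0.00145), and its call in shH4 was lost without shControl replicate 2 (0.13, limma adjusted p = 0.0513). Cdc20, Bub1b, Bub3, Anapc1 and Anapc5 rose by 0.15 to 0.21 in each hairpin. Bub1 (ENSMUSG00000027379) was called in shH6 (0.17, limma adjusted p = 0.00618) and not in shH4 (0.10, limma adjusted p = 0.0731). Its shH4 libraries were at 2355, 2062 and 2099.8, so 1 was clear of the controls (2015, 2056 and 1992) and 2 were just above them.

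All 14 kinetochore and centromere genes were higher in both hairpins, and 13 were called in each (92.9%, against 95.7% of all listed genes in shH4 and 96.1% in shH6). In the mean of both hairpins, Cenps, Cenpn and Cenpi of the inner kinetochore changed most. Cenps (ENSMUSG00000073705), which also belongs to a DNA repair complex, was at 234, 209 and 209 normalized counts in the shControl libraries, 272, 288 and 245 in shH4 and 291, 311 and 323 in shH6. Its log2 fold change was 0.30 in shH4 (SE 0.085, limma adjusted p = 0.00386) and 0.50 in shH6 (SE 0.085, limma adjusted p = 7.44e-05), and the KD libraries were all above the controls. Cenpn (ENSMUSG00000031756), a reader of the centromeric nucleosome, rose by 0.25 and 0.37 (limma adjusted p = 0.00613 and 0.000331), and Cenpi (ENSMUSG00000031262) by 0.34 and 0.25 (8.76e-05 and 0.000928). In the outer kinetochore, which grips the microtubules, Ndc80 rose by 0.10 and 0.17 (0.0432 and 0.00236), Nuf2 by 0.15 and 0.12 (0.00468 and 0.0135) and Spc24 by 0.19 and 0.30 (0.00500 and 0.000141). These 3 encode subunits of one complex.

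The SKA complex, which couples that complex to the shrinking microtubule, was listed whole. Ska1 was higher by 0.24 and 0.31 (limma adjusted p = 0.00473 and 0.000850 in shH4 and shH6) and Ska3 by 0.23 and 0.26 (0.00325 and 0.00131). Ska2 was called in shH4 at 0.22 (0.00446) and not in shH6 at 0.11 (0.0963), where shH6 replicate 3 was at 793, within the controls (791, 818 and 805), and the other 2 libraries were above them. Cenpf (ENSMUSG00000026605), one of the most abundant members, was at 8189.8, 8358 and 8435 (shControl), 9313, 8779.9 and 9590.2 (shH4) and 9398, 9113 and 9304 (shH6), with log2 fold changes of 0.15 and 0.15 (limma adjusted p = 0.00139 and 0.000913). The kinetochore kinesin Cenpe rose by 0.11 and 0.08 (0.00527 and 0.0346), the smallest called change of this group in shH6. Cenpj, which is named like a kinetochore gene but builds centrioles, was not called in shH4 (0.13, limma adjusted p = 0.120) and rose in shH6 (0.31, limma adjusted p = 0.00174), where all 3 libraries were above the controls.

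The kinesins parted by role. All 7 mitotic kinesins were higher and all 5 other kinesins were lower, in both hairpins. Of the mitotic kinesins, 6 were called in shH4 (85.7%, against 95.7% of all listed genes) and 7 in shH6 (100%, against 96.1%). Kif23 (ENSMUSG00000032254), the motor of the central spindle at cytokinesis, was at 1718, 1759 and 1653 normalized counts in the shControl libraries, 2198, 2107 and 2029 in shH4 and 2083, 2224 and 2106 in shH6, with a log2 fold change of 0.30 in shH4 (SE 0.043, limma adjusted p = 1.45e-05) and 0.32 in shH6 (SE 0.043, limma adjusted p = 7.76e-06). Its KD libraries were all above the controls, and no other mitotic kinesin changed as much in either hairpin. Kif14, which also acts at cytokinesis, rose by 0.18 and 0.18 (limma adjusted p = 0.000986 and 0.000978), Kif2c, which removes tubulin from microtubule ends, by 0.16 and 0.19 (0.00177 and 0.000529) and Kif11, which pushes the spindle poles apart, by 0.17 and 0.15 (0.000651 and 0.00159). Kif4, a motor of chromosome arms, was not called in shH4 (0.07, limma adjusted p = 0.0796), although its 3 shH4 libraries (2094, 2034 and 2136) were above its controls (1975, 1975 and 2017).

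The 5 kinesins outside the mitotic group were called lower in both hairpins, as were 44.6% of all listed genes. Kif21b (ENSMUSG00000041642), a motor that slows microtubule growth and is known from neurons and immune cells, was at 2037, 2088 and 2152 normalized counts in the shControl libraries, 1161, 1313 and 1415 in shH4 and 1273, 1164 and 1247 in shH6. All KD libraries were far below the controls, and the log2 fold change was −0.69 in shH4 (SE 0.060, limma adjusted p = 7.66e-08) and −0.77 in shH6 (SE 0.060, limma adjusted p = 2.43e-08). Kif3c (ENSMUSG00000020668), a subunit of the kinesin-2 transport motor, was at 1896, 1797 and 1741 (shControl), 1383, 1429 and 1459.5 (shH4) and 1476, 1416 and 1392 (shH6), with log2 fold changes of −0.35 and −0.34 (limma adjusted p = 5.31e-06 and 5.73e-06). Kif3a (ENSMUSG00000018395), of the same motor and needed to build cilia, had −0.12 and −0.23 (0.0426 and 0.00120). Its call in shH4 was lost without shControl replicate 1 (−0.13), shControl replicate 3 (−0.11) or shH4 replicate 1 (−0.07, limma adjusted p = 0.222). Column-total scaling lost it too (−0.10, limma adjusted p = 0.0986). Kif9 (ENSMUSG00000032489), a motor of cilia and flagella, was the lowest member. It was at 33.5, 22.5 and 26.6 (shControl), 17.7, 9.89 and 9.78 (shH4) and 13.0, 18.9 and 9.98 (shH6), few enough counts that its log2 fold change of −1.12 in shH4 (SE 0.303, limma adjusted p = 0.00300) and −0.96 in shH6 (SE 0.303, limma adjusted p = 0.00745) carried a wide error.

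The condensin and SMC genes were higher in all 7 cases, with 6 called in shH4 (85.7%, against 95.7% of all listed genes) and 7 in shH6 (100%, against 96.1%). Smc6 (ENSMUSG00000020608), of the SMC5/6 repair complex, was at 2707, 2835 and 2716 (shControl), 3368, 3283 and 3129.6 (shH4) and 3207, 3176 and 3172 (shH6), with log2 fold changes of 0.24 and 0.21 (limma adjusted p = 2.90e-05 and 0.000105). The condensin I subunits Ncapd2 and Ncaph rose by 0.16 and 0.24 (0.00121 and 4.28e-05) and 0.12 and 0.23 (0.0103 and 0.000139). The shared condensin core, Smc2 and Smc4, rose by 0.09 and 0.17 (0.0216 and 0.000503) and 0.13 and 0.10 (0.00219 and 0.00928), and the cohesin subunit Smc3 by 0.08 and 0.12 (0.0307 and 0.00504). Tacc2 (ENSMUSG00000030852), a centrosome protein and the only spindle assembly gene listed, was at 441, 583 and 483 (shControl), 558, 599 and 592 (shH4) and 581, 563 and 711 (shH6). It was called in both, at 0.22 and 0.30 (0.0333 and 0.00716), but its libraries overlapped, with shControl replicate 2 above 2 shH6 libraries. Its call in shH4 was lost without any 1 of 4 libraries (shControl replicates 1 and 3, shH4 replicates 2 and 3). The change was 0.13 without shControl replicate 1 (limma adjusted p = 0.179) and 0.20 to 0.21 without any of the others.

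Members known to peak in G2 and M phase were examined as a group, from a list of 50 symbols of which 32 were listed. The list was drawn up with earlier results of these data known, so its direction is described here and was not tested. All 32 were higher in both hairpins, which the selection of the table for 1 direction makes the same statement. In shH4, 29 of them were called (90.6% higher, against 49.2% of all listed genes), and in shH6 31 were (96.9%, against 49.1%). The 3 not called in shH4 were Bub1, Kif4 and Ncapg2, and the 1 not called in shH6 was Ska2. Their log2 fold changes ran only from 0.070 to 0.34 in shH4 and from 0.080 to 0.32 in shH6, with medians of 0.16 and 0.18. With upper-quartile scaling the medians of the 32 were 0.10 and 0.12, and all 32 were above 0. The 37 members outside the list were spread more widely, from −1.12 to 0.61 in shH4 and −0.96 to 0.52 in shH6, and held all 12 members that were lower.

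The promoters of the members were then searched for 3 elements known from cell cycle genes, as a description of their sequence. RefSeq promoter windows (GRCm38.p6, from 250 bases before to 50 after the start site) were matched for 60 of the 69 members by symbol. The CHR element was searched as TTTGAA and TTCGAA, the CCAAT box as CCAAT, and the E2F element as TTCGCGC and TTGGCGC, each on both strands, and a CCAAT match can share letters with an E2F match. A CHR match was in 19 of the 27 G2 and M phase members with a window (70.4%), in 6 of the 33 other members (18.2%), in 16.1% of all listed genes with a window and in 21.7% of all genes with one. It was in 25 of the 51 members that were higher (49.0%) and in 0 of the 9 that were lower. Of these 25, 19 were of the G2 and M phase list, so this mostly repeats the comparison before it, and 9 genes are few. CCAAT was in 66.7% of the G2 and M phase members and 44.0% of all listed genes, and E2F in 22.2% and 9.19%.

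Some matches upstream of the start sites of members are printed because they show the element beside the gene it stands at. Sequences are on the strand of the gene, 5′ to 3′, with the match in capitals. Its first base is counted from the start site, which is 1, and TTCAAA is TTTGAA read on the other strand.
Cdk1, chr10:69352910-69352939, strand minus, CHR at −15: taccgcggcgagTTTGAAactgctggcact
Cdc20, chr4:118437344-118437373, strand minus, CHR at −18: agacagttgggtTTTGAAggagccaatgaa
Ncapg2, chr12:116405406-116405435, strand plus, CHR at −18: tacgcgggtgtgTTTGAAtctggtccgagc
Kif11, chr19:37376351-37376380, strand plus, CHR at −19: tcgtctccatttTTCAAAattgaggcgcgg
Ska3, chr14:57826160-57826189, strand minus, CHR at −14: gcctgcgcaggaTTCAAAtgtgtagcgcgt
Cdc25a, chr9:109875502-109875531, strand plus, E2F at −66: gtgaattccgtTTGGCGCcaactaggaaag
Cdk1, chr10:69353024-69353053, strand minus, E2F at −130: ttccgctccctTTCGCGCtctgcgctccca
Cdc25a, a gene of G1 and S phase, had no CHR match in this window, and neither Ccnb1 nor Cenpe, both of the G2 and M phase list, had one. A match of 6 letters is common and is no evidence of binding, and no binding was measured in these libraries.

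**Figure D4:**
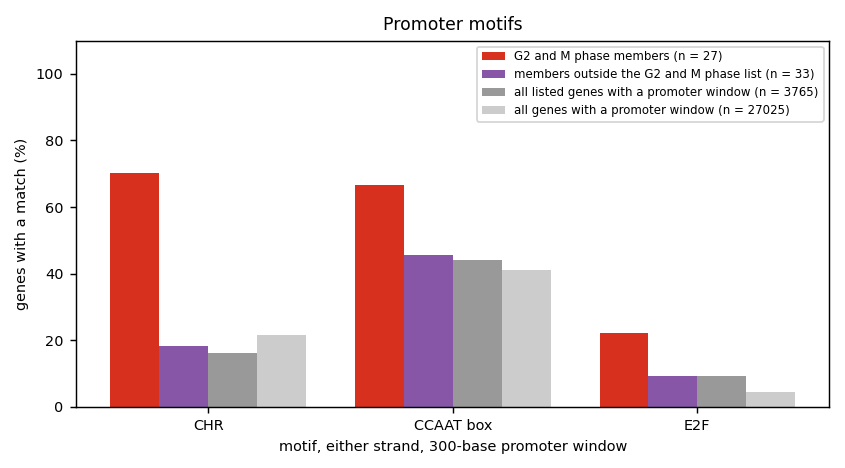
Share of genes with at least 1 match (y axis, percent, from 0) to the CHR, CCAAT and E2F letters on either strand of the RefSeq promoter window, for the 27 G2 and M phase members, the 33 other members, the 3765 listed genes and all 27025 genes with a window. The CHR bars are 70.4, 18.2, 16.1 and 21.7%.

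The level of the members was compared per kb of the longest transcript, as the mean of the 9 libraries. Anapc5, a scaffold subunit of the anaphase-promoting complex, was highest at 2559 normalized counts per kb, followed by Cdc20 at 2197, Ccnb1 at 1709, Ccna2 at 1655 and Smc4 at 1590.1. The E cyclins were lower, at 362 for Ccne1 and 391 for Ccne2. Kif9 was lowest at 5.65, below Tacc2 at 62.9 and Cenpj at 75.8. Kinesins outside the mitotic group had a median of 178, against 543 for the mitotic kinesins. The median coefficient of variation of the members between replicate libraries was 2.77% (shControl), 3.39% (shH4) and 3.07% (shH6), against 3.97, 4.29 and 4.55% for all listed genes.

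The hairpins were compared directly to ask where the members differed between them. Of the 69 members, 4 were called (5.80%, against 8.26% of all listed genes), with 3 higher in shH6 (4.35%, against 3.89%) and 1 lower (1.45%, against 4.38%). An unadjusted limma p under 0.05 was found for 9 of the 69 members and for 1141 of the 5301 listed genes. The median difference was 0.023 on the log2 scale. Cdk12 (ENSMUSG00000003119) was lower in shH6 than in shH4, with a difference of −0.29 (95% interval −0.38 to −0.20, limma adjusted p = 0.000349). The libraries given above were 2085, 2199 and 2265 in shH6 and 2571, 2765 and 2682 in shH4, with no overlap. Cdk19 (ENSMUSG00000038481) was higher in shH6, by 0.20 (95% interval 0.12 to 0.28, limma adjusted p = 0.00371), having fallen in shH4 and not been called in shH6. Kif21a (ENSMUSG00000022629), a relative of Kif21b, was at 1290.1, 1257 and 1272 (shControl), 1032, 995 and 1033 (shH4) and 1175, 1105 and 1139.8 (shH6), a difference of 0.16 (95% interval 0.07 to 0.25, limma adjusted p = 0.0312). Against shControl it was at −0.16 in shH6 and −0.32 in shH4. Ncapg2 (ENSMUSG00000042029), a condensin II subunit, was at 2375, 2426 and 2427 (shControl), 2545, 2476 and 2570.2 (shH4) and 2729, 2781 and 2772 (shH6), a difference of 0.13 (95% interval 0.05 to 0.20, limma adjusted p = 0.0334), with adjusted p-values against shControl of 0.0610 and 0.000110 in shH4 and shH6. In shH4 it was called with column-total scaling (0.10, limma adjusted p = 0.0168) and without shH4 replicate 2 (0.09, limma adjusted p = 0.0462).

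For 12 members (17.4%, against 24.8% of all listed genes) the shH6 libraries did not overlap with the shH4 libraries. The number of members called was 2 without shControl replicate 3, shH4 replicate 1, shH4 replicate 2 or shH6 replicate 1, where 2.32 to 3.34% of all listed genes were called higher and 2.85 to 3.64% lower. The 2 members were Cdk12 and Cdk19. These 2 were called with each of the 9 libraries left out, whereas Kif21a was lost without 6 of the libraries and Ncapg2 without 7, 1 at a time, with differences of 0.14 to 0.17 for Kif21a and 0.11 to 0.14 for Ncapg2 in those fits. Ccne2, Cdc25a, Cdkn1a, Kif21b and Kif9, which changed most against shControl in the mean of both hairpins, were not called. The 95% interval of their difference was −0.21 to 0.05 for Ccne2, −0.17 to 0.08 for Cdc25a, −0.07 to 0.15 for Cdkn1a, −0.20 to 0.05 for Kif21b, and much wider for the scarce Kif9, at −0.48 to 0.80. Other features of the lines also differed. The summed level of the listed endothelial markers (Cdh5 and Pecam1, 2 of 3) was 173 to 208 normalized counts in shH4, against 20.2 to 30.7 in shControl and 26.01 to 31.2 in shH6, and that of Krt8 and Krt18 was 26584 to 28996 (shControl), 22386 to 23863 (shH4) and 24795 to 27873 (shH6). Against shControl, Krt8 and Krt18 fell in shH4, with −0.25 and −0.32 (limma adjusted p = 0.000118 and 1.27e-05), and were not called in shH6, with −0.08 and −0.07 (0.0953 and 0.139). Resf1 itself was higher in shH6 by 0.19 (95% interval 0.10 to 0.28, limma adjusted p = 0.00984). The part of these in the 4 differences was not tested.

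**Figure D5:**
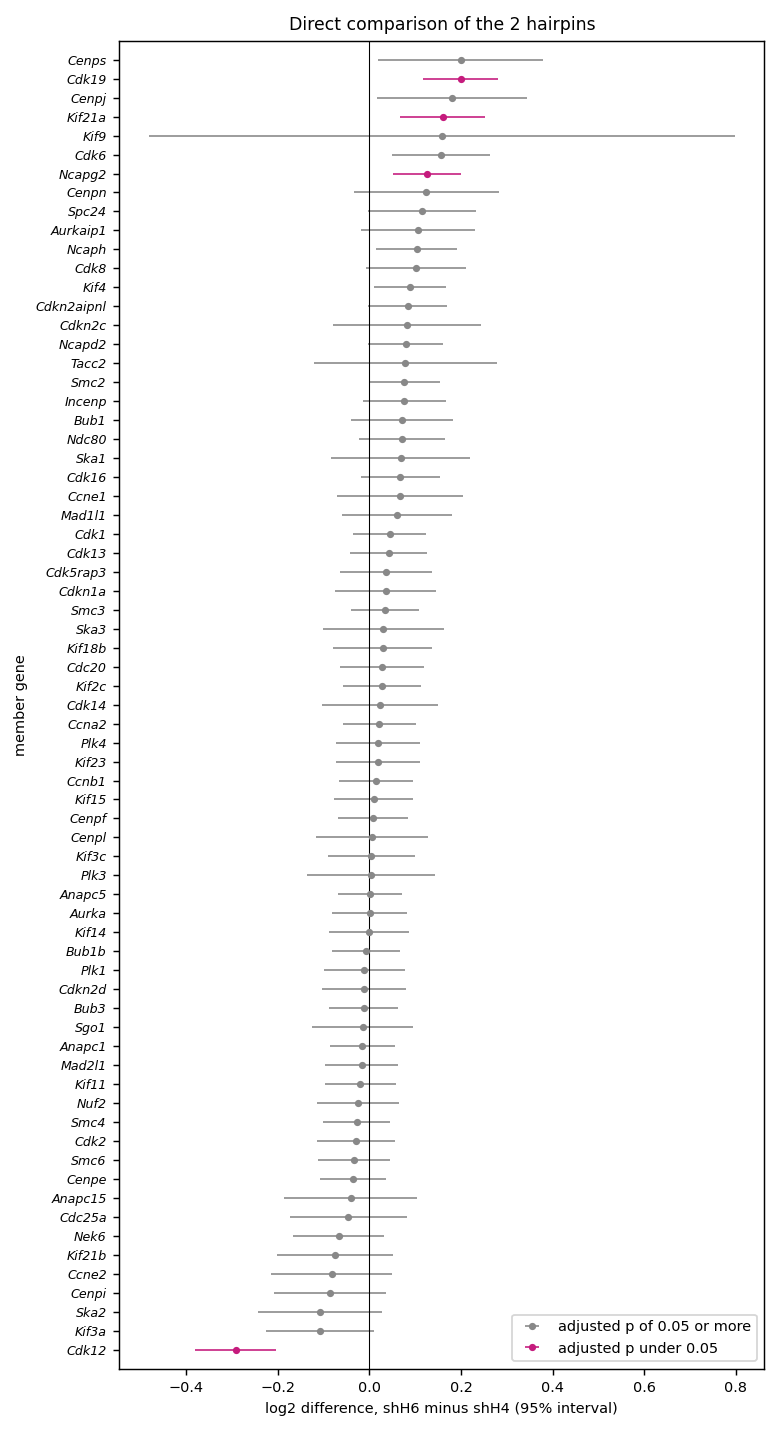
Log2 difference of shH6 minus shH4 (x axis) for each member (rows), with its 95% interval. The 4 members with an adjusted p under 0.05 are in pink. Cdk12 lies at −0.29 and the others between 0.13 and 0.20, while most intervals cross 0.

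Other genes of mitosis and its control, which the rule did not take in, were read from a list of 95 symbols, of which 50 were listed. In shH4, 41 rose (82.0%, against 49.2% of all listed genes) and 6 fell (12%, against 46.5%), and in shH6 43 rose (86.0%, against 49.1%) and 5 fell (10.0%, against 46.9%). With upper-quartile scaling the numbers were smaller in shH4, with 27 that rose and 6 that fell, where the same scaling called 38.5% of all listed genes higher and 48.6% lower. The median log2 fold change was 0.17 and 0.20. Foxm1 (ENSMUSG00000001517), the transcription factor of G2 and M phase genes, was at 1476, 1701 and 1665 normalized counts in the shControl libraries, 2119.9, 2220.0 and 2199.5 in shH4 and 2007, 1948 and 2457 in shH6. It did not overlap with the controls, and its log2 fold change was 0.44 in shH4 (SE 0.070, limma adjusted p = 4.67e-05) and 0.40 in shH6 (SE 0.070, limma adjusted p = 9.76e-05). The gene of B-MYB, which also joins the MuvB complex, Mybl2 (ENSMUSG00000017861), was at 750.2, 791 and 924 (shControl), 964, 1035 and 982 (shH4) and 1209, 1213 and 1389.8 (shH6), with 0.28 and 0.63 (limma adjusted p = 0.00190 and 1.19e-06). The scaffold Lin9 rose by 0.35 and 0.39 (2.27e-05 and 7.31e-06), and the proliferation marker Mki67 by 0.25 and 0.29 (7.16e-06 and 1.33e-06).

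The E2F factors E2f2, E2f3, E2f4, E2f6, E2f7 and E2f8 rose in both hairpins, from 0.15 to 0.35 in shH4 and 0.20 to 0.55 in shH6, whereas Rb1 (ENSMUSG00000022105), whose protein holds E2F factors back, was at 284, 251 and 268 (shControl), 203, 212 and 238 (shH4) and 193, 213 and 153 (shH6). That is a log2 change of −0.30 and −0.53 (limma adjusted p = 0.0171 and 0.000388), with the KD libraries below the controls. Its relative Rbl2 fell, with −0.12 and −0.35 (0.0469 and 2.62e-05), while Rbl1, an E2F target itself, was higher by 0.14 and 0.18 (0.0145 and 0.00303). The remaining genes that fell were Ccng1, Ccng2, Mdm2 and Mastl, a kinase of mitotic entry. Mastl was called in shH4 (−0.15, limma adjusted p = 0.00921) and not in shH6 (−0.10, limma adjusted p = 0.0558). It was not called in the direct comparison of the hairpins (0.05, limma adjusted p = 0.631). Mdm2 and Ccng1 are p53 targets, while Trp53 (ENSMUSG00000059552), which encodes p53, was higher, by 0.40 and 0.37 (6.78e-05 and 0.000122). In the direct comparison 6 of the 50 were called (12%, against 8.26% of all listed genes), with E2f2, Espl1 and Mybl2 higher in shH6 and Ccng1, Mdm2 and Rbl2 lower.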

How the data were processed

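Total RNA of 9 libraries (3 groups of 3) was sequenced with a TruSeq Stranded Total RNA kit. The authors deposited 1 table of normalized counts (unit treated as signal), which per their methods were scaled by median ratios and tested in DESeq2. The submitters' processing notes name Partek, STAR 2.7.8a, DESeq2 and the build mm39. How reads were counted, and whether by strand, is not given in the sources used here. The rule by which the 5301 genes were selected is not stated either.

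Because 71.8% to 77.3% of the values under 150 were whole multiples of a common step (tolerance 0.02), reads were not recovered and no count test was run. Values were tested as log2(normalized count + 1) with limma 3.58.1 in R 4.3.3, with all 9 libraries, a mean per group, no filter, empirical Bayes moderation with trend and Benjamini-Hochberg adjustment over 5301 genes. Gene identifiers were matched to GENCODE M21 (5258 matched, 99.2%). On simulated data with 200 changed genes of 5301, 79% were recovered in shH4 against shControl and 78% in shH6. There were 0 calls between the hairpins, where none differed. In the deposited table, 5074 of the 5301 genes were called in shH4 and 5092 in shH6. Recovery with so many changed genes was not tested.

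Members and lists were chosen with earlier results of these data known. Named were every cyclin, Cdkn and Cdc25 member, up to 3 members per other role with the largest mean change and the 1 with the highest level per kb, every member called between the hairpins, members moving against their role, and Resf1. Other genes were named after their values were seen. Alternatives were the pseudocount (0.5 and 10), a filter of 10 normalized counts, upper-quartile and column-total scaling, library weights, a replicate block, fits of only the 2 groups compared, and leaving out each library. Libraries within groups varied beyond counting noise (chi-square per gene 2.40 to 7.47).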

Additional observations from a re-analysis of the deposited data

Results flagged for a closer look

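The difference between the hairpins was itself called, in the limma comparison of shH6 with shH4, for 4 members. Cdk12 differed by −0.29, Cdk19 by 0.20, Kif21a by 0.16 and Ncapg2 by 0.13 on the log2 scale (shH6 minus shH4), and in each the 3 libraries of one hairpin did not overlap with those of the other. Kif21a was no longer called without shControl replicate 3, shH6 replicate 1, shH6 replicate 3 or any 1 of the 3 shH4 libraries, and Ncapg2 without any of these or shH6 replicate 2. Cdk12 and Cdk19 were called with each of the 9 libraries left out in turn.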

How the results depend on the processing

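For the 40 genes named by rule, 1998 of 2037 results under an alternative had the same direction and the same call, 33 were no longer called, 6 became called and 0 reversed. The median log2 fold change of the members in shH4 and shH6 was 0.10 and 0.12 with upper-quartile scaling and 0.19 and 0.22 with column-total scaling. The number of members called was 48 to 67 in shH4 and 61 to 68 in shH6, with the lowest in each under upper-quartile scaling, which in shH4 gave 36 higher and 12 lower members and 27 higher and 6 lower genes of the list of other mitotic genes, where 38.5% of all listed genes were called higher and 48.6% lower. In shH6 that scaling called 40.2% of all listed genes higher and 48.6% lower. Between the hairpins the number of members called was 2 with only the 2 groups compared, 2 to 4 with 1 library left out and 6 with library weights, where the counts over all genes were 329 higher and 355 lower in place of 206 and 232. With 1 library left out, 2.32 to 3.96% of all listed genes were called higher in shH6 than in shH4 and 2.85 to 4.19% lower. Of the 40 genes named by rule, Cdk1, Mad1l1, Ncaph, Smc4 and Tacc2 in shH4 and Smc4 in shH6 were no longer called with upper-quartile scaling. Further members outside these 40 also lost their call with it. Samples with the same replicate number had correlations of their deviations of −0.155 to 0.108, against −0.245 to 0.197 for samples with different numbers. With 3 libraries per group, whether the numbers mark a shared source cannot be told. With the replicate number as a block, 63 members were called in shH4, 67 in shH6 and 4 between the hairpins. The block called 49.1% of all listed genes higher and 46.2% lower in shH4, 49% and 46.7% in shH6, and 3.66% and 3.98% between the hairpins. Of the genes named by rule, Kif3a in shH4 (limma adjusted p = 0.0534) and Ncapg2 between the hairpins (0.0510) were no longer called, so the 4 are not all the ones named above. The number of libraries limits precision, and the shallowest library had an estimated 10.5 M reads in listed genes.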

Other observations

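Beside Cdkn1a and Plk3, other genes known as p53 targets were lower after KD. Of 33 such symbols, written down after the values had been seen and therefore not tested as a list, 22 were in the table, among them Cdkn1a, Plk3, Ccng1 and Mdm2 of the genes described above. All 22 were below 0 in both hairpins, and 20 were called lower in shH4, where 46.5% of all listed genes were, and 22 in shH6, where 46.9% were. Their medians on the log2 scale were −0.42 (shH4) and −0.49 (shH6), against 0.096 and 0.088 for all listed genes. Ddit4, an inhibitor of mTOR signalling, had 1366 ± 82.0 (shControl), 558 ± 24.4 (shH4) and 741 ± 45.0 (shH6) normalized counts as mean ± SD of 3 libraries, log2 fold changes of −1.29 and −0.88. Eda2r, a receptor of the tumor necrosis factor family, had −0.99 and −1.31, Btg2, which restrains proliferation, −0.91 and −0.96, Trp53inp1 −0.83 and −0.74, and Sesn2, a sestrin of the stress response, −0.62 and −0.63. In all 5, each KD library was below each shControl library.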
